A study of Arabidopsis thaliana with 8 samples.

Results

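The 10 genes described here are classical cold-induced (COR, cold-regulated) genes of Arabidopsis thaliana, chosen by their locus identifiers from the 33602 genes of the deposited table. They are RD29A (AT5G52310, which the table labels LTI78), KIN1 (AT5G15960), KIN2 (AT5G15970), COR15A (AT2G42540), COR15B (AT2G42530), LTI30 (AT3G50970, labelled XERO2), COR47 (AT1G20440), ERD10 (AT1G20450), COR413IM1 (AT1G29395) and GOLS3 (AT1G09350). RNA was sequenced from whole seedlings of 4 genotypes, with 2 libraries each. The genotypes were the Col-0 wild type (WT), the single mutant cob-6, the single mutant sfr6-3, and the double mutant cob-6sfr6-3 that carries both alleles. The cob-6 allele lies in COB, a gene for a membrane-anchored cell wall protein, and sfr6-3 lies in MED16, a gene for a tail subunit of the Mediator complex. All seedlings were 7 days old and grew in 24 h light. The labels name no cold treatment, and they do not say what lesion either allele carries or how many seedlings went into a library. By its title, the series identified a suppressor of COBRA in MED16. The comparison of the double mutant with cob-6 shows how cob-6 seedlings with and without the MED16 allele differed.

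In the cold, CBF transcription factors bind the CRT/DRE element in the promoters of COR genes and switch them on. The products include dehydrins and other hydrophilic proteins that protect membranes and proteins during freezing and water loss, and some of the genes also answer to abscisic acid through the ABRE element. Mediator links transcription factors to RNA polymerase II. MED16 was first known as SFR6 (SENSITIVE TO FREEZING 6), from mutants that fail to induce COR genes and to acclimate to cold although they still make CBF transcripts.

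The CRT/DRE core was searched for in the 500 bases before the start codon of each gene, since this is the element through which the group is known to be switched on. The letters searched were CCGAC on both strands, in the lowest-numbered RefSeq transcript of the TAIR10.1 genome and annotation, and overlapping matches were counted once. All 10 genes held the core, beside 23.4% of 27442 protein-coding genes with such a window. Each line below gives the match nearest to the start codon in 25 bases, read 5′ to 3′ on the strand that spells the core, with the core in capitals.
RD29A, chr5:21240711-21240735, plus strand: aaagatcaagCCGACacagacacgc
KIN1, chr5:5209804-5209828, plus strand: taaatagctaCCGACataaggcaaa
KIN2, chr5:5211771-5211795, plus strand: taaaaagctaCCGACataaggcaaa
COR15A, chr2:17712218-17712242, minus strand: aatttcatggCCGACctgctttttt
COR15B, chr2:17710124-17710148, minus strand: aacttgatggCCGACctcttttttc
LTI30, chr3:18940624-18940648, minus strand: tacgtgttggCCGACatcgtaaaag
COR47, chr1:7085918-7085942, minus strand: tattcatctaCCGACttcaagaaat
ERD10, chr1:7089363-7089387, minus strand: caccgaccgaCCGACgtaaaagaaa
COR413IM1, chr1:10289911-10289935, plus strand: ttcattggtaCCGACataactaatt
GOLS3, chr1:3019424-3019448, minus strand: tctattttgtCCGACccatggccga

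The sites of LTI30, COR413IM1 and GOLS3 read against the direction of their gene, and the other 7 read along it. The first base of the core lay between 178 bases (KIN1) and 454 bases (GOLS3) before the start codon. The KIN1 and KIN2 sites matched at 24 of 25 bases, and those of COR15A and COR15B at 20 of 25. In the 10 windows there were 18 matches, and 17 of them had an A or a G just before the core, the exception being the GOLS3 site printed above. RD29A held 4 matches, LTI30 held 3, and COR15A, ERD10 and GOLS3 held 2 each, so that 5 of the 10 genes had at least 2, beside 4.42% of all windows. The ABRE core ACGTG, searched the same way, was found in 9 of the 10 windows, ERD10 being the one without it, beside 34.6% of all windows. The windows are not all promoter sequence. In 9 of the genes the RefSeq transcript starts from 127 to 560 genomic bases before the start codon. In COR47 it starts 1209 bases before the start codon. By that annotation the sites printed above for RD29A, KIN1, KIN2, COR15A, COR15B, COR47 and ERD10 lie after the transcript start. Those of LTI30, COR413IM1 and GOLS3 lie before it. The windows of COR15B and COR47 lie wholly after it. The deposited gene models differ. In deposited coordinates RD29A, KIN1 and KIN2 start at 21240849, 5209898 and 5211911. COR15B and COR47, on the minus strand, end at 17709945 and 7085772. If the 2 builds share coordinates, which was not tested, the sites printed for these genes lie before the deposited transcript start. A match is a run of letters and was not tested as a binding site.

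**Figure D1:**
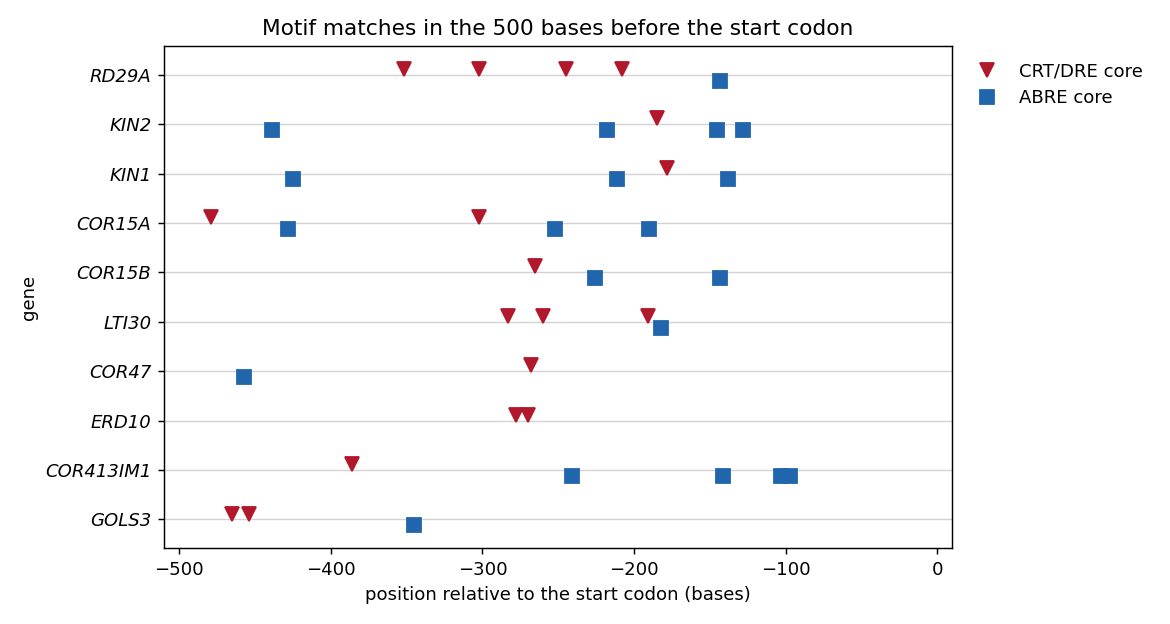
Motif matches in the 500 bases before the start codon of each COR gene. The x axis is the position relative to the start codon in bases, red triangles are matches to the CRT/DRE core and blue squares matches to the ABRE core. RD29A carries 4 CRT/DRE cores and ERD10 carries no ABRE core.

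Outside WT replicate 1 and double mutant replicate 2, libraries held 22841714 to 25276476 uniquely assigned gene reads, while double mutant replicate 2 held 35719762 and the library labelled WT replicate 1 held 307544522. The counts of WT replicate 1 cannot be taken as independent of the rest. Of 24551 genes with unique reads elsewhere, 0 fell short in WT replicate 1 of the summed reads of the other 7 libraries, and 1178 equalled that sum. The summed reads come to 58.7% of its total. All 10 COR genes stood above that sum in WT replicate 1. The comparisons of sfr6-3 and of cob-6 with WT are therefore also given without this library, and with the reads of the other 7 taken off it. The average effect of sfr6-3 over both COB backgrounds and the interaction also use WT. Their main values include this library. COB stood at 70.5 to 87 CPM (unique reads scaled to library size and between libraries by TMM) in the 4 libraries that carry cob-6, and at 151 to 252 CPM in the others. MED16 stood at 7.89 to 11.4 CPM in the 4 libraries that carry sfr6-3 and at 25.6 to 41.3 CPM in the others. The target genes thus matched their labels, with WT replicate 1 the lower of the WT pair for both. Whether the replicates came from separate cultures is not in the labels. The p-values therefore cover the spread between these libraries alone, and that spread may be technical. In whole seedlings, fewer cells of a type and less RNA per cell cannot be told apart.

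The COR genes covered a wide range of levels in these seedlings. In WT replicate 2, the authors' RPKM, which accounts for gene length, was 406 for COR47, 106 for COR413IM1, 58.8 for KIN2, 46 for ERD10, 24.5 for RD29A and 18.5 for LTI30. The other 4 genes were near the bottom of that range, with KIN1 at 1.88, COR15B at 1.87, COR15A at 0.571 and GOLS3 at 0.176 RPKM. Outside WT replicate 1, KIN1, COR15A and GOLS3 had at most 43 unique reads in any library. All 10 passed the filter on low counts. A count of 3 reads equals 0.00978 CPM in WT replicate 1 and 0.0852 to 0.13 CPM elsewhere, a limit set by counting error alone.

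With sfr6-3 in the cob-6 background, 4 of the 10 genes fell, namely RD29A, COR413IM1, KIN2 and LTI30, and none rose (edgeR's quasi-likelihood test, adjusted p under 0.05). Among all 20955 genes tested, 1.09% fell and 1.58% changed in either direction. The falls ran from 3.55-fold for LTI30 to 15.2-fold for COR413IM1. The median log2 change of the 10 genes was -1.27, beside 0.01 for all genes tested. In 8 of the 10 genes both double mutant libraries lay below both cob-6 libraries, as they did for 24.1% of all genes. In the other two, COR15B overlapped and GOLS3 was higher.

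With sfr6-3 alone, RD29A and COR413IM1 fell, 2 of the 10 genes, where 0.143% of all genes fell and 0.153% changed in either direction. The median log2 change was -1.24, beside 0.00 for all genes, and in 7 of the 10 genes both sfr6-3 libraries lay below both WT libraries, beside 18.8% of all genes. Without WT replicate 1, which leaves WT replicate 2 as the only wild type and assumes that it varies like the other genotypes, RD29A, COR413IM1, KIN2 and LTI30 fell, beside 0.746% of all genes. The same 4 genes fell with the reads of the other 7 libraries taken off WT replicate 1, beside 0.628% of all genes. Averaged over both backgrounds, which uses the same libraries again, sfr6-3 lowered those 4 genes and ERD10, 5 of the 10, where 1.61% of all genes fell and 1.88% changed in either direction. ERD10 lost this call without cob-6 replicate 1 (adjusted p = 0.0777) and without sfr6-3 replicate 2 (adjusted p = 0.0854).

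**Figure D2:**
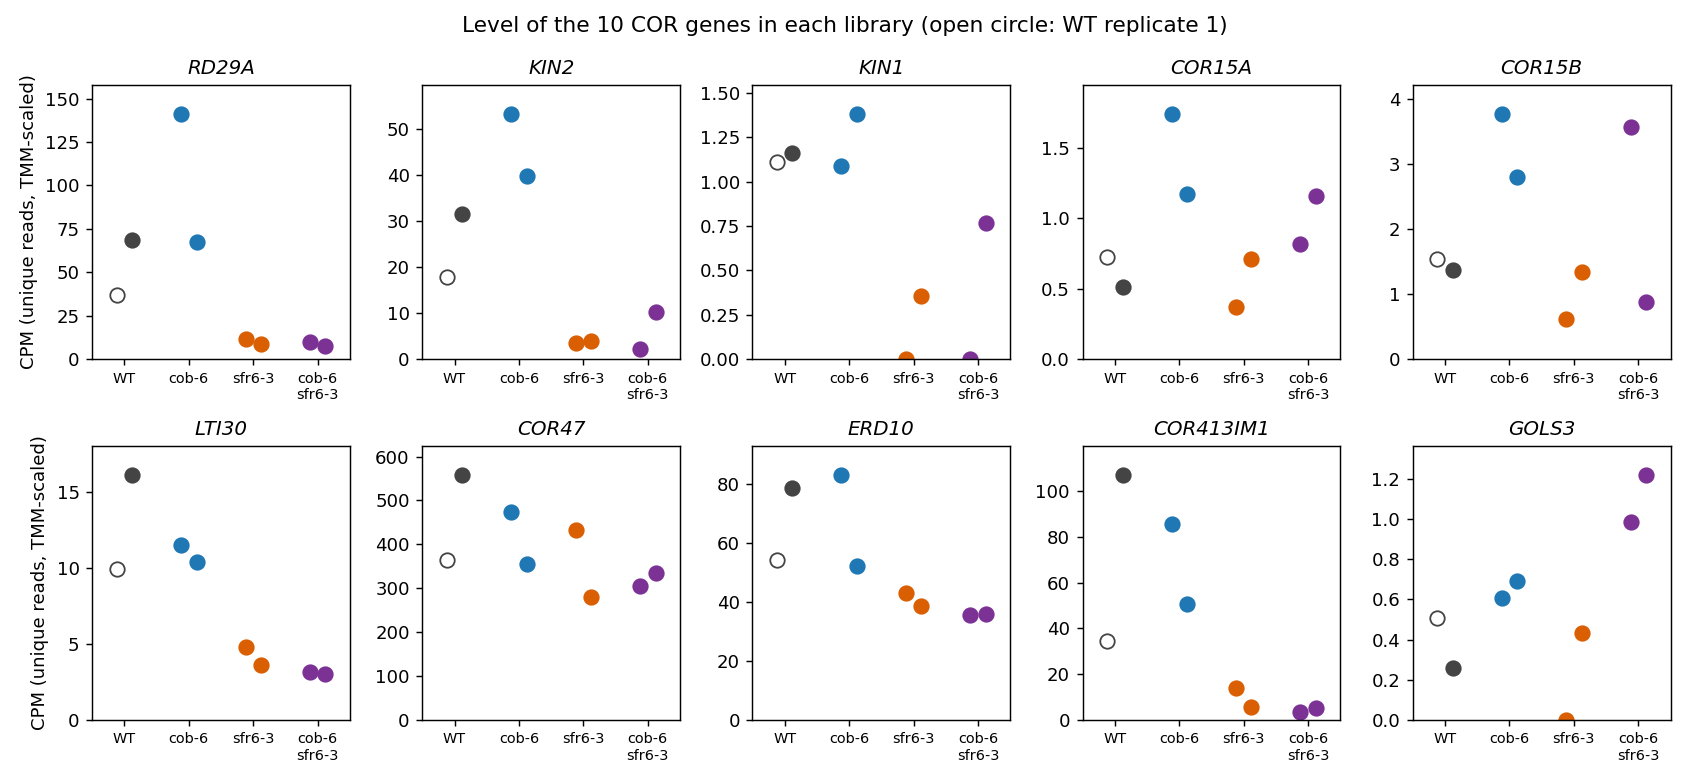
Level of each COR gene in every library. The y axis is CPM of unique reads on a linear scale that starts at 0 and differs between panels, and each point is 1 library, with WT replicate 1 as an open circle. RD29A, KIN2, COR413IM1 and LTI30 are low in all 4 libraries that carry sfr6-3, while COR47 overlaps across genotypes.

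RD29A encodes a hydrophilic protein and is the usual reporter gene for cold, drought and abscisic acid responses. It lies at chromosome 5, 21240849 to 21243613, in the deposited coordinates, of a build that the sources used here do not give. It had levels of 37.1 and 68.8 CPM for WT, 141 and 67.7 CPM for cob-6, 11.8 and 8.72 CPM for sfr6-3, and 10.1 and 7.38 CPM for the double mutant. Every library with sfr6-3 was below every library without it. The share of all genes split this way was not counted, here or for the genes below. RD29A fell by 3.59 ± 0.36 on the log2 scale in the double mutant against cob-6 (SE, n = 2 libraries per genotype, edgeR adjusted p = 0.000437), a 12-fold fall. In sfr6-3 against WT it fell by 2.36 ± 0.35 (edgeR adjusted p = 0.0161), and by 2.75 without WT replicate 1. That call was lost without sfr6-3 replicate 1 (adjusted p = 0.112) and without sfr6-3 replicate 2 (adjusted p = 0.276). Over both backgrounds RD29A fell by 2.97 ± 0.25 (edgeR adjusted p = 5.01e-05).

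KIN1 and KIN2 are tandem neighbours on chromosome 5, at 5209898 to 5210727 and 5211911 to 5212665, and encode small, closely related hydrophilic proteins. Their coding sequences are shown because reads can only be given to 1 of them where they differ. Both are 201 bases long in RefSeq TAIR10.1, on the plus strand, and 191 bases match, which is 95%. The 10 differing bases are in capitals.
KIN1: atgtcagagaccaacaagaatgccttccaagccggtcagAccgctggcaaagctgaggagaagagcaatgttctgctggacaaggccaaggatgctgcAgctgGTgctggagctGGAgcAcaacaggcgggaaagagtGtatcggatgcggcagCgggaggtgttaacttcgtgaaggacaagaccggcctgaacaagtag
KIN2: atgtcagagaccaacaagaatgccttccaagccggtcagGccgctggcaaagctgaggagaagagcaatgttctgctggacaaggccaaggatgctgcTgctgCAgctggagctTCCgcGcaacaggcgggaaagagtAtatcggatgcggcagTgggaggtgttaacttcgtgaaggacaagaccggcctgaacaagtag

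The longest run that both share is 58 bases, shorter than the 100-base reads. Of the reads the authors gave to each gene, 98.9% were unique for KIN1 and 98.8% for KIN2, so the counting left few shared between them. The sources used here do not say how the counting treated reads that match both genes.

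KIN2 had levels of 17.8 and 31.5 CPM for WT, 53.1 and 39.7 CPM for cob-6, 3.37 and 4.02 CPM for sfr6-3, and 2.26 and 10.3 CPM for the double mutant. All 4 libraries with sfr6-3 were below all 4 without it, and the double mutant pair lay far apart. KIN2 fell by 2.85 ± 0.47 in the double mutant against cob-6 (edgeR adjusted p = 0.01), a 7.23-fold fall. The size depended on the double mutant library used, at -4.36 without its replicate 2 and -2.17 without its replicate 1, and the call was lost without cob-6 replicate 1 (adjusted p = 0.0536). In sfr6-3 against WT its log2 change was -2.72 ± 0.49 (edgeR adjusted p = 0.0529), and it fell by 3.09 without WT replicate 1 (adjusted p = 0.00495).

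KIN1 was read far less than its neighbour. It had levels of 1.11 and 1.16 CPM for WT, 1.09 and 1.38 CPM for cob-6, 0 and 0.355 CPM for sfr6-3, and 0 and 0.767 CPM for the double mutant. Here too the libraries with sfr6-3 were all below those without it in CPM. The unique reads did not split so, with 27 each in WT replicate 2, cob-6 replicate 1 and double mutant replicate 2, the deeper library. Both libraries at 0 carry sfr6-3, and KIN2 had 82 and 55 unique reads in them. The log2 change of KIN1 was -1.63 ± 1.26 in the double mutant against cob-6 (95% interval -4.34 to 1.09, edgeR adjusted p = 0.544) and -2.64 ± 1.37 in sfr6-3 against WT (-5.60 to 0.31, adjusted p = 0.962). These intervals hold both no change and falls larger than that of KIN2. Per length, in the authors' RPKM, KIN2 stood 18.2 and 31.3 times above KIN1 in WT and 55.5 and 33 times above it in cob-6. In the sfr6-3 and double mutant libraries where KIN1 was read, the ratio was 13 and 15.2, each resting on few KIN1 reads (9 and 27).

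COR15A and COR15B encode proteins that enter the chloroplast stroma and stabilize its membranes during freezing. They are tandem neighbours on chromosome 2, at 17711032 to 17712330 and 17709036 to 17709945, with 75.1% identity over their aligned coding sequences, and 100% of the reads of each were unique. COR15A had levels of 0.727 and 0.513 CPM for WT, 1.74 and 1.17 CPM for cob-6, 0.37 and 0.71 CPM for sfr6-3, and 0.82 and 1.16 CPM for the double mutant. The cob-6 libraries were the highest, with replicate 2 just above the double mutant. COR15B had levels of 1.54 and 1.37 CPM for WT, 3.77 and 2.81 CPM for cob-6, 0.617 and 1.34 CPM for sfr6-3, and 3.57 and 0.88 CPM for the double mutant. The double mutant pair spanned most of the range of the other genotypes.

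Neither COR15 gene was called in any comparison. In the double mutant against cob-6 the log2 change was -0.55 ± 0.75 for COR15A (95% interval -2.17 to 1.08, edgeR adjusted p = 0.76). For COR15B it was -0.58 ± 0.64 (-1.97 to 0.81, adjusted p = 0.691), and 0.12 without double mutant replicate 2. In sfr6-3 against WT COR15A gave -0.22 ± 0.78 (-1.90 to 1.45, edgeR adjusted p = 1) and COR15B -0.57 ± 0.67 (-2.01 to 0.87, adjusted p = 1). The value of COR15A turned to 0.07 without WT replicate 1. A fall of the size seen in RD29A in the double mutant lies outside the interval of either gene in that comparison, while a fall like that of LTI30 does not.

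LTI30, COR47 and ERD10 encode dehydrins, disordered proteins that bind water and membranes. LTI30 lies at chromosome 3, 18940777 to 18941554, and had levels of 9.95 and 16.1 CPM for WT, 11.5 and 10.4 CPM for cob-6, 4.81 and 3.59 CPM for sfr6-3, and 3.16 and 3.04 CPM for the double mutant. The libraries with sfr6-3 were all below those without it. LTI30 fell by 1.83 ± 0.30 in the double mutant against cob-6 (edgeR adjusted p = 0.00943), and the call was lost without cob-6 replicate 1 (adjusted p = 0.0688). In sfr6-3 against WT its log2 change was -1.62 ± 0.29 (edgeR adjusted p = 0.0529), and it fell by 1.94 without WT replicate 1 (adjusted p = 0.00839).

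ERD10 lies next to COR47 on chromosome 1, at 7088003 to 7089606 and 7084409 to 7085772. ERD10 had levels of 54.2 and 78.7 CPM for WT, 83.1 and 52.3 CPM for cob-6, 42.9 and 38.7 CPM for sfr6-3, and 35.7 and 35.8 CPM for the double mutant. Again all 4 libraries with sfr6-3 were below the other 4, by a smaller step. The log2 change of ERD10 was -0.92 ± 0.22 in the double mutant against cob-6 (95% interval -1.39 to -0.45, edgeR adjusted p = 0.0533) and -0.70 ± 0.22 in sfr6-3 against WT (adjusted p = 0.446). DESeq2 called the first of these (adjusted p = 0.00352), as did edgeR without either WT library or without cob-6 replicate 2 (adjusted p = 0.0193, 0.0173 and 0.0304). Over both backgrounds ERD10 fell by 0.81 ± 0.15 (edgeR adjusted p = 0.0151).

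COR47 was the most abundant of the 10 genes and moved least among the well-read ones. It had levels of 365 and 558 CPM for WT, 474 and 356 CPM for cob-6, 432 and 279 CPM for sfr6-3, and 304 and 334 CPM for the double mutant. The sfr6-3 libraries overlapped those of WT, while the double mutant lay below cob-6. Its log2 change was -0.38 ± 0.23 in the double mutant against cob-6 (95% interval -0.88 to 0.12, edgeR adjusted p = 0.429) and -0.38 ± 0.23 in sfr6-3 against WT (-0.88 to 0.13, adjusted p = 1). These intervals leave out falls as large as those of RD29A, KIN2, COR413IM1 or LTI30 in the double mutant. Per length, COR47 stood 7.16 to 8.83 times above ERD10 in the WT and cob-6 libraries and 9.03 to 12.6 times above it in the sfr6-3 and double mutant libraries, so the groups with and without sfr6-3 did not overlap in this ratio. The coding sequences of the 2 genes are 72.4% identical and 100% of their reads were unique.

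COR413IM1 encodes a membrane protein of the chloroplast inner envelope and lies at chromosome 1, 10288197 to 10289621. It had levels of 34.4 and 107 CPM for WT, 85.4 and 50.6 CPM for cob-6, 13.8 and 5.48 CPM for sfr6-3, and 3.57 and 5.28 CPM for the double mutant. The libraries with sfr6-3 were all below those without it, and WT replicate 1 was the lowest of the latter. COR413IM1 fell by 3.93 ± 0.52 in the double mutant against cob-6 (edgeR adjusted p = 0.00252), the largest fall of the 10 genes. In sfr6-3 against WT it fell by 2.87 ± 0.49 (edgeR adjusted p = 0.0416). The latter depended on the libraries used: leaving out WT replicate 1 gave -3.48, and leaving out WT replicate 2 gave -1.84, where the call was lost (adjusted p = 0.0909). The call was also lost without sfr6-3 replicate 1 (-3.68, adjusted p = 0.109) and without sfr6-3 replicate 2 (-2.34, adjusted p = 0.447). Its tandem relative COR413IM2, which is not one of the 10, stood at 38.8 to 62.7 CPM in all libraries and gave -0.02 ± 0.17 in the double mutant against cob-6 (edgeR adjusted p = 0.96).

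GOLS3 encodes a galactinol synthase, which makes the galactinol needed for raffinose, a sugar that builds up in the cold. It lies at chromosome 1, 3019819 to 3021441. It had levels of 0.509 and 0.257 CPM for WT, 0.608 and 0.692 CPM for cob-6, 0 and 0.434 CPM for sfr6-3, and 0.984 and 1.22 CPM for the double mutant. The double mutant libraries were the highest, at 24 and 43 unique reads. The log2 change was 0.76 in the double mutant against cob-6 (95% interval -1.60 to 3.13, edgeR adjusted p = 0.769) and -0.86 in sfr6-3 against WT (-3.40 to 1.67, adjusted p = 1). Both intervals hold no change as well as changes in either direction, and the first leaves out a fall of the size seen in RD29A. In the double mutant against sfr6-3 the log2 change of GOLS3 was 2.33 (95% interval -0.24 to 4.90, edgeR adjusted p = 0.383).

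**Figure D3:**
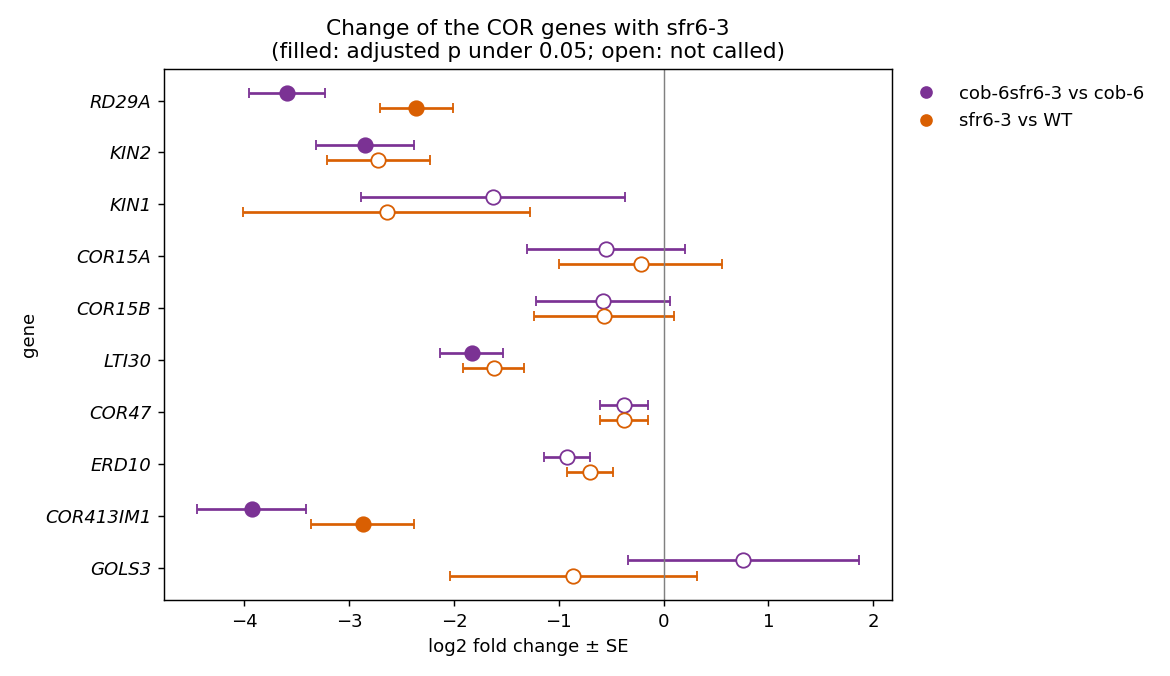
Change of each COR gene with sfr6-3. The x axis is the log2 fold change with its standard error, purple for the double mutant against cob-6 and orange for sfr6-3 against WT, and filled points passed an adjusted p of 0.05. COR413IM1 and RD29A are filled in both comparisons, and the bars of KIN1 and GOLS3 are the widest.

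Intron reads, a rough sign of unspliced RNA, were few. In the WT and cob-6 libraries KIN2 had 59, 9, 17 and 11 unique intron reads, and in the sfr6-3 and double mutant libraries 0, 0, 0 and 2. COR413IM1 had 41, 10, 17 and 2 in the former and 1, 0, 0 and 0 in the latter. In both genes every library with sfr6-3 had fewer intron reads than every library without it, the closest values being 1 and 2 for COR413IM1. That holds for 2 of the 7 COR genes with any intron read, beside 2.15% of all tested genes with one. RD29A had 4, 0, 3 and 0 in the libraries without sfr6-3 and 0 in all 4 with it. ERD10 overlapped, with 117, 2, 16 and 13 without sfr6-3 and 2, 7, 21 and 16 with it. The first value of each series comes from WT replicate 1, whose depth is over 8 times that of any other library. COR47 kept 16 to 80 intron reads in the libraries with sfr6-3, beside 26 to 58 in those without it other than WT replicate 1, which had 407. These counts were not tested.

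The authors' deposited table gives its own fold and p-value for the double mutant against cob-6. In the authors' deposited table KIN2 was lower by a fold of 7.41 (p = 4.1e-18), the gene with the 4th smallest p. In the authors' deposited table, COR413IM1 was lower by a fold of 14.9 (p = 1.07e-12, rank 7). RD29A was lower there by a fold of 11.6 (p = 6e-12, rank 11) in the authors' deposited table. The authors' deposited table has LTI30 lower by 3.47 (p = 0.000824) and ERD10 by 1.92 (p = 0.00147), and p-values from 0.102 to 1 for the other 5 genes. These p-values are not adjusted. The authors' further list, of genes they give for cob-6 but not for the double mutant, holds 0 of the 10 genes.

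The cob-6 allele moved none of the 10 genes past the threshold. Against WT, edgeR called 0 and DESeq2 called 0 of the 10, and 1 passed an unadjusted p of 0.05, where edgeR called 0.0954% of all genes and DESeq2 0.635%. That gene was RD29A, with a log2 change of 0.99 ± 0.32 (95% interval 0.30 to 1.69, edgeR adjusted p = 0.581) and overlapping libraries. At that unadjusted p 1.96% of all genes were higher and 3.42% lower. KIN2, COR15A, COR15B and GOLS3 were higher in both cob-6 libraries than in both WT libraries, with changes of 0.93 ± 0.44, 1.20 ± 0.76 and 1.17 ± 0.65 for the first 3 and 0.70 (95% interval -1.68 to 3.08) for GOLS3. That is 4 of the 10, beside 20.5% of all genes. Leaving out WT replicate 1 gave 0 calls by edgeR among the 10, where 0.801% of all genes were called. Of the 10, 4 were then higher and 3 lower in both cob-6 libraries than in the 1 remaining WT library, beside 39.5% and 37.3% of all genes. Taking the reads of the other 7 libraries off WT replicate 1 also gave 0 calls, beside 0.419% of all genes, and RD29A stood at 1.09 in that fit and at 0.60 in the one before.

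Within the sfr6-3 background cob-6 likewise gave 0 calls by edgeR and 0 by DESeq2 among the 10, with 1 at an unadjusted p under 0.05. Of all genes edgeR called 0.229% and DESeq2 2.44%, while 7% were lower and 7.69% higher at that unadjusted p. The gene at an unadjusted p under 0.05 was COR413IM1, at -1.11 ± 0.51 (edgeR adjusted p = 0.34). KIN2 gave 0.79 ± 0.49 with all libraries, and 1.47 without double mutant replicate 1, which leaves replicate 2 alone. KIN2 stood at 2.26 CPM in replicate 1 and 10.3 CPM in replicate 2. The latter is the library that the seed markers below set apart. The difference between the effects of sfr6-3 in the wild-type COB and cob-6 backgrounds was tested as an interaction, which called 0 of the 10 by edgeR and 0 by DESeq2, with 1 at an unadjusted p under 0.05, where edgeR called 0.0191% of all genes and DESeq2 0.372%. Of all genes 4.01% were lower and 5.14% higher at that unadjusted p. RD29A, the gene that passed it, gave the lowest value, -1.23 ± 0.48 (95% interval -2.26 to -0.20, edgeR adjusted p = 0.493). For KIN2 the difference was -0.13 ± 0.66 (-1.55 to 1.28), for LTI30 -0.20 ± 0.41 (-1.09 to 0.68) and for COR413IM1 -1.06 ± 0.68 (-2.52 to 0.40). The falls of these genes are thus not shown to differ between the backgrounds.

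Of 22 genes on a list of other cold-regulated genes 20 were tested, and edgeR called 1 in each comparison, where it called 1.09% of all genes lower in the double mutant against cob-6 and 0.143% lower in sfr6-3 against WT. That gene was LEA14, which encodes a late embryogenesis abundant protein. LEA14 had levels of 18.9 and 21.9 CPM for WT, 27.4 and 29.7 CPM for cob-6, 6.66 and 6.94 CPM for sfr6-3, and 7.67 and 13.7 CPM for the double mutant. It fell by 1.41 ± 0.24 in the double mutant against cob-6 (edgeR adjusted p = 0.012) and by 1.58 ± 0.25 in sfr6-3 against WT (adjusted p = 0.022). The list's log2 changes ran from -4.85 to 0.57 with a median of -0.36 in the first, and from -1.58 to 0.02 with a median of -0.43 in the second. At an unadjusted p under 0.05, 7 of the 20 were lower and 3 higher in the double mutant against cob-6. The shares of all genes were 8.91% and 8.16%. DESeq2 called 3 lower and 1 higher, beside 2.82% and 2.02% of all genes. For sfr6-3 against WT 7 were lower and 0 higher at that p, beside 4.41% and 1.18% of all genes. There DESeq2 called 1 lower, beside 0.778% of all genes. Over both backgrounds 2 of the 20 fell, LEA14 and COR413PM1, a plasma membrane relative of COR413IM1, which fell by 0.71 ± 0.15 (edgeR adjusted p = 0.0319), where 1.61% of all genes fell. DESeq2 called 7 lower and 1 higher there, beside 3.09% and 0.83% of all genes. At an unadjusted p under 0.05, 11 were lower and 1 higher, beside 7.8% and 5.15% of all genes.

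Among the CBF genes and their upstream regulators, 18 of 19 were tested, and 0 were called by edgeR and 0 by DESeq2 in either comparison, with 2 lower at an unadjusted p under 0.05 in the double mutant against cob-6 and 1 lower in sfr6-3 against WT, beside 8.91% and 4.41% of all genes. Over both backgrounds edgeR called 0 and DESeq2 called 1, which was lower, beside 3.09% of all genes. There 3 were lower at an unadjusted p under 0.05, beside 7.8% of all genes. The medians were -0.04 in the double mutant against cob-6 and -0.00 in sfr6-3 against WT. The CBF genes themselves were read at between 0.0394 and 2.92 CPM for CBF1, 0.868 and 2.72 CPM for CBF2, and 0 and 1.5 CPM for CBF3 over the 8 libraries. CBF1 gave 1.91 ± 0.96 in the double mutant against cob-6 (edgeR adjusted p = 0.333) and -1.45 ± 0.97 in sfr6-3 against WT (adjusted p = 1).

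Abscisic acid and dehydration genes likewise had 0 calls by edgeR and 0 by DESeq2 among the 14 tested of 15 in both comparisons. At an unadjusted p under 0.05, 3 were lower in the double mutant against cob-6 and 1 in sfr6-3 against WT, beside the same shares of all genes, and the medians were -0.00 and -0.10. For sfr6-3 over both backgrounds edgeR called 0 and DESeq2 called 1, which was lower, beside 3.09% of all genes. At that unadjusted p 1 was lower and 1 higher, beside 7.8% and 5.15% of all genes. RD29B, the neighbour of RD29A known as an abscisic acid responder, gave 0.04 ± 0.58 in the double mutant against cob-6 (edgeR adjusted p = 0.982) and -0.55 ± 0.56 in sfr6-3 against WT (adjusted p = 1). RD29B was named after its values were seen.

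**Figure D4:**
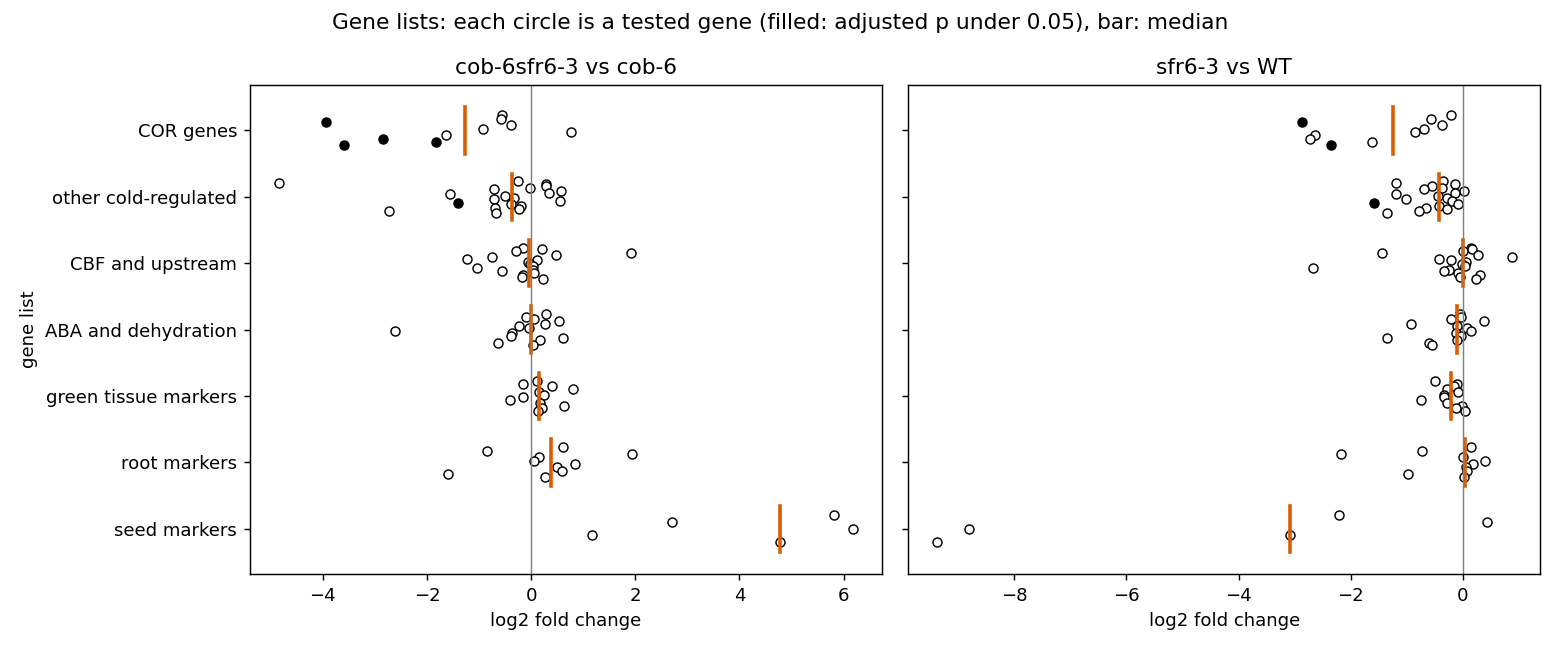
Log2 fold changes of the COR genes and of 6 other gene lists. The x axis is the log2 fold change, each circle is a tested gene, filled where its adjusted p was under 0.05, and the orange bar is the list's median. The median of the COR genes lies at -1.27 in the double mutant against cob-6 and -1.24 in sfr6-3 against WT, while that of the CBF and upstream genes lies at -0.04 and -0.00.

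Markers of tissue makeup were read beside these results. The 12 green tissue markers summed to 42614 and 43076 CPM in WT, 32035 and 37471 in cob-6, 33005 and 44717 in sfr6-3 and 44412 and 44641 in the double mutant, and none was at 0 in any library. The 10 root markers summed to 224 and 278 CPM in WT, 173 and 188 in cob-6, 244 and 253 in sfr6-3 and 213 and 237 in the double mutant, with none at 0. Both sums were thus higher in the double mutant than in cob-6, where the COR genes were lower, and their part in the result was not tested. RBCS1A, the largest part of the green sum, stood at 11448 and 13051 CPM in cob-6 and 19827 and 18212 CPM in the double mutant. Gene by gene, the log2 change in that comparison was positive for 9 green markers and negative for 3. Among root markers it was positive for 8 and negative for 2. Among green markers edgeR called 0 in the double mutant against cob-6 (3 higher at an unadjusted p under 0.05, 2 by DESeq2) and 0 in sfr6-3 against WT (2 lower, 1 by DESeq2), with medians of 0.16 and -0.22. Among root markers it called 0 and 0 (4 higher and 1 lower, 2 by DESeq2, and 1 higher and 1 lower, 0 by DESeq2), with medians of 0.38 and 0.03. Of all genes 8.16% were higher and 8.91% lower at that p in the double mutant against cob-6. In sfr6-3 against WT 1.18% were higher and 4.41% lower. For the same 2 comparisons edgeR called 1.58% and 0.153% of all genes, and DESeq2 4.84% and 0.811%.

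The 6 seed storage and embryo markers set 1 library apart. They summed to 43.6 CPM in double mutant replicate 2, to 6.53 and 8.34 CPM in WT, and to 0.284 to 2.09 CPM in the other 5 libraries, where 2 to 5 of the 6 were at 0. The 6.53 CPM is that of WT replicate 1, whose counts are not independent of double mutant replicate 2. CRA1 and OLE1, the most read of the 6 in double mutant replicate 2, had 1005 and 332 unique reads there. In WT replicate 1 they had 1206 and 357. Of the 6, 5 were tested, and neither edgeR nor DESeq2 called any (0 and 0). At an unadjusted p under 0.05, 3 were higher in the double mutant against cob-6, beside 8.16% of all genes. In sfr6-3 against WT 2 were lower at that p, beside 4.41% of all genes. The medians were 4.78 and -3.09. The values for sfr6-3 against WT include WT replicate 1 and carry its limit. Among the COR genes, double mutant replicate 2 was the higher of its pair for KIN2, KIN1, COR15A, COR47, COR413IM1 and GOLS3. ERD10 was nearly level, at 35.8 against 35.7 CPM, and RD29A, COR15B and LTI30 were lower. The share of all genes higher in that replicate was not counted. The part of seed RNA in these differences was not tested. Without that library the double mutant still had 4 COR genes called against cob-6, RD29A, KIN2, COR413IM1 and LTI30, where 0.588% of all genes fell.

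The genes that followed the COR genes most closely were looked for over the 7 libraries other than WT replicate 1. Among 17432 genes whose log2 CPM averaged at least 1, the highest Pearson correlations with the mean centred log2 CPM of the 10 genes were those of ROC1 (0.972), AT3G05730 (0.971), ABCI21 (0.968), LEA14 (0.966), AT1G19380 (0.964) and AT1G67105 (0.964). ROC1, a cyclophilin gene, stood at 304 to 310 CPM in those of the 7 libraries without sfr6-3 and at 200 to 249 CPM in those with it. AT1G67105 showed a wider step, from 9.77 to 12.5 CPM down to 1.03 to 3.04 CPM. The points share their library and its scaling, so these values only describe likeness. Of the COR genes at that level, KIN2 correlated with the group mean, of which it is a part, at 0.970, RD29A at 0.915, COR413IM1 at 0.842, LTI30 at 0.840, ERD10 at 0.836 and COR47 at 0.528. The mean itself was 0.84 in WT replicate 2, 1.34 and 0.95 in cob-6, -1.31 and -0.65 in sfr6-3, and -0.88 and -0.30 in the double mutant.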

How the data were processed

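The authors deposited whole-number counts per gene for 8 libraries of 100-base paired-end reads, per the file headers: total and unique gene reads, exon, junction and intron reads. They also deposited RPKM values per gene, used here only to compare genes per length, and for the double mutant against cob-6 a signed fold, read as a score, and a p-value. Per the file headers, that p-value comes from an EDGE test on tagwise dispersions. The genome build, the aligner, the counter and any use of strand were not given in the sources used here. Columns of other series numbered 0. Deposited coordinates are printed as they are, and motifs and coding sequences come from RefSeq TAIR10.1. A planned comparison of protein sequences was not run.

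Groups and replicate numbers came from the sample titles. Unique gene reads were tested with edgeR 4.0.16 in R 4.3.3 (limma 3.58.1, DESeq2 1.42.0 as an alternative): TMM scaling, filterByExpr, 1 mean per genotype over all 8 libraries, 4 residual degrees of freedom, prior degrees of freedom 9.25, biological coefficient of variation 0.202. Adjusted p-values are Benjamini-Hochberg values over all genes tested in each fit, 20955 with all 8 libraries, and standard errors were derived from the fold change and its F statistic. Log2 CPM used a prior count of 2. The test was tested on simulated data. Alternatives were other read classes, scaling, filter, tool, libraries, a replicate block, and WT replicate 1 less the others. Replicate numbers did not pair the libraries.

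The COR genes and all lists were chosen with earlier results of these data known. Besides them, named genes were COB and MED16, up to 3 called genes per list, and the 6 most alike in profile. The CBF genes, COR413IM2 and RD29B were named after their values were seen.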

Additional observations from a re-analysis of the deposited data

How the results depend on the processing

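Of the log2 changes of the 10 COR genes in the double mutant against cob-6, in sfr6-3 against WT and for sfr6-3 over both backgrounds, under other settings, 427 kept direction and side of the threshold, 21 gained a call, 12 lost one and 10 turned sign, none of the latter called. In the double mutant against cob-6, where 1.58% of all genes were called, calls among the 10 were both lost and gained when 1 library was left out. That leaves a lone library assumed to vary like the rest. For sfr6-3 against WT calls were likewise lost and gained when 1 library was left out. The 2 calls became 1 for total gene reads (0.131% of all genes) and 4 for WT replicate 1 less the other 7 (0.718%). They became 5 with no filter on low counts (1.53%). With no filter the calls also rose from 0 to 2 for cob-6 against WT, for the double mutant against sfr6-3 and for the interaction, beside 1.33%, 3.31% and 0.822% of all genes, in a fit of 25179 genes with infinite prior degrees of freedom. Calls also varied with the library left out for the double mutant against sfr6-3 and for sfr6-3 over both backgrounds. Over both backgrounds 5 of the 10 fell with WT replicate 1 less the other 7, beside 2.56% of all genes. DESeq2 called 1014 genes in all for the double mutant against cob-6, where edgeR called 331, and 170 against 32 for sfr6-3 against WT. The values that turned sign, with the range over left-out libraries, were COR15B in the double mutant against cob-6 (-1.90 to 0.12, the latter without double mutant replicate 2), COR15A in sfr6-3 against WT (-0.77 to 0.16, positive without sfr6-3 replicate 1, 0.07 when WT replicate 1 was left out and 0.21 when the other 7 were taken off it) and GOLS3 in sfr6-3 against WT (-7.72 to 0.12, without sfr6-3 replicates 2 and 1). GOLS3 over both backgrounds ran from -3.48 to 0.44 without the same 2 libraries, and stood at 0.27 without WT replicate 1, 0.16 with it less the other 7, 0.00 without cob-6 replicate 2 and 0.01 without double mutant replicate 1. The cause was not tested. Same-numbered libraries correlated at -0.075 to 0.056 in their deviations from the genotype means, so the numbers do not pair them. A replicate block gave 4 calls in the double mutant against cob-6, beside 1.31% of all genes. In sfr6-3 against WT, KIN2 gained a call with it (edgeR adjusted p = 0.0256) and COR413IM1 lost one (adjusted p = 0.0566). A fit on only the genotypes compared gives no other value for the interaction and for sfr6-3 over both backgrounds, which use all 8 libraries. KIN1, COR15A and GOLS3 had at most 43 unique reads in any library other than WT replicate 1, which limits their precision.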
